A study of Mus musculus with 9 samples.

Results

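The 9 genes described here, Pdgfra, Cspg4, Olig1, Olig2, Sox10, Enpp6, Lhfpl3, Neu4 and Gpr17, are commonly used to recognise oligodendrocyte precursor cells. They were chosen by name as markers of these cells, with earlier results of these data known. Each had 1 probe set annotated to a single gene, so all 9 of 9 entered the analysis, out of 19938 genes represented on the array and 16323 tested. Expression was measured in mice at postnatal day 13 in 3 groups of 3 samples. The groups were wildtype cerebellum, cerebellum labelled SufuKO, and medulloblastoma, a tumour of the cerebellum, labelled Ptch1KO. Every Ptch1KO sample was a tumour and every other sample was cerebellum. An effect of the Ptch1 genotype therefore cannot be told apart from a difference between tumour and cerebellum. Total RNA was read on Affymetrix Mouse Gene 1.0 ST arrays, with 1 array per sample. The labels give no strain, no deleted exon and no promoter or Cre driver for either knockout, and do not state whether the replicates of a group were different animals. The p-values therefore rest on a spread among samples that may in part be technical.

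Oligodendrocytes, the cells that wrap axons in myelin, arise from dividing precursors that migrate through the brain and stop dividing as they mature. The precursors carry the receptor Pdgfra, which binds platelet-derived growth factor (PDGF), and the proteoglycan Cspg4, also called NG2. The transcription factors Olig1, Olig2 and Sox10 set up and keep the lineage, and Gpr17 and Enpp6 mark the cells that are leaving the precursor stage. Some of these genes are also used by other cells, Pdgfra by fibroblasts, Cspg4 by pericytes, Sox10 by Schwann cells and Olig2 by several neural progenitors.

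The promoters of 4 of the genes are shown because these genes moved in different ways, Pdgfra upward in both mutants, Lhfpl3 and Olig2 upward in the tumours, and Enpp6 downward in both mutants. The windows are the RefSeq sequences of build GRCm38.p6, from 250 bases before to 50 bases after the annotated start, all on the plus strand. RefSeq windows were matched for 6 of the 9 genes, and Olig1, Sox10 and Gpr17 were not matched. The windows lie at chr5:75152001-75152300 for Pdgfra, chr5:22745804-22746103 for Lhfpl3, chr16:91225300-91225599 for Olig2 and chr8:46986637-46986936 for Enpp6. Capitals mark matches, on either strand, to the E-box CANNTG of basic helix-loop-helix factors such as Olig1 and Olig2 or to the Sox core motifs ACAATG and ACAAAG.
Pdgfra: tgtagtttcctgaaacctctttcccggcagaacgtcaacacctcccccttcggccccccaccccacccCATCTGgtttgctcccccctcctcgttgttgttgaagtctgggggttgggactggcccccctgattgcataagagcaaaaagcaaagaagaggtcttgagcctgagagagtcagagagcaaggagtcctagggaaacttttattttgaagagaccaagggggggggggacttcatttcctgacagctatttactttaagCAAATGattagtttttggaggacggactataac
Lhfpl3: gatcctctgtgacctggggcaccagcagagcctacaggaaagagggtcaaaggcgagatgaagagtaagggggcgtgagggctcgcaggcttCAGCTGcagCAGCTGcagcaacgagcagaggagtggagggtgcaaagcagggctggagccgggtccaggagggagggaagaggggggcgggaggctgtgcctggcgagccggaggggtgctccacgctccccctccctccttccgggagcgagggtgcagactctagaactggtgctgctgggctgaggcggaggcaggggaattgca
Olig2: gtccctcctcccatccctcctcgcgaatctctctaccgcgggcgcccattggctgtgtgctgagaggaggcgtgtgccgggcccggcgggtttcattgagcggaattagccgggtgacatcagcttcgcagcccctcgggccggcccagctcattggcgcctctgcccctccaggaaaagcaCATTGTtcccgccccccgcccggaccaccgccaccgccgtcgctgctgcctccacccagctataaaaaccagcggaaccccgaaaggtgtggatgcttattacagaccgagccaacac
Enpp6: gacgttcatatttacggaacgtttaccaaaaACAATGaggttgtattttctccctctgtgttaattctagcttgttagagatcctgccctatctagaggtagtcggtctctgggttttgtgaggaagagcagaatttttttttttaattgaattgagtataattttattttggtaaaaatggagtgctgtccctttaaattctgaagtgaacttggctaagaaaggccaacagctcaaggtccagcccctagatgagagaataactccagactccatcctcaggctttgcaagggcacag
Pdgfra and Lhfpl3 each held 2 E-box matches and no Sox match, and Olig2 and Enpp6 each held 1 ACAATG match and no E-box. Cspg4 and Neu4 were searched too and are not shown. Cspg4 held 0 matches to the E-box or Sox motifs, and Neu4 held 1 E-box and no Sox match. No match overlapped another. An E-box was present in 72.3% of 32851 promoter windows of the same length, ACAATG in 12.6% and ACAAAG in 18.7%. The Gli motif GACCACCCA, of the transcription factors at the end of the Hedgehog pathway, was present in 0.253% of windows and had 0 matches in any of the 6 windows searched.

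The array values are log2 intensities with medians between 6.72 and 6.79, and 3 arrays per group limit the precision. All 9 genes lay above the median on every array. Sufu read 8.82 to 9.03 (log2) in wildtype, 7.99 to 8.14 in SufuKO and 9.81 to 9.92 in the tumours, so the SufuKO arrays were the lowest. Ptch1 read 10.25 to 10.28 in wildtype and 11.17 to 11.43 in the tumours, and its deleted part is not given in the labels, so it does not check that label. Xist, which is made from the inactive X chromosome and so marks female tissue, was high on 3 of 3 wildtype arrays and on 1 of 3 arrays in each mutant group. With a term for high Xist in the model, the 1 member whose call changed was Olig1 in the tumours against wildtype. No wildtype array was low in Xist, so that term rests on the mutant arrays alone and cannot settle the part of sex. A level is not compared between genes, because probe sets differ in how brightly they read.

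The 9 genes did not move as a group. In SufuKO against wildtype cerebellum, 1 rose, 5 fell and 3 did not pass the test (limma, adjusted p under 0.05). Over all tested genes 13% were called higher and 12.4% lower in that comparison. The riser was Pdgfra, and the genes that fell were Enpp6, Olig1, Sox10, Neu4 and Lhfpl3. In the tumours against wildtype, 4 rose (Pdgfra, Lhfpl3, Olig2 and Cspg4), 2 fell (Enpp6 and Sox10) and 3 did not pass, where 22.1% of all tested genes were called higher and 24.7% lower. Against SufuKO, the tumours were higher in 6 genes (Pdgfra, Lhfpl3, Olig1, Olig2, Cspg4 and Neu4), with 3 not passing. Of all tested genes 12.2% were called higher and 17.5% lower in that comparison. No gene of the 9 was called lower there, with Enpp6 at an unadjusted p of 0.0189. Both mutants were compared with the same wildtype arrays, so the 2 comparisons are not independent.

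The median log2 difference of the 9 genes was -0.29 in SufuKO against wildtype, 0.27 in the tumours against wildtype and 0.35 in the tumours against SufuKO. Over all tested genes the medians were -0.00605, -0.0127 and -0.00793. The 2 groups compared did not overlap in 8 of the 9 genes for SufuKO against wildtype, in 7 for the tumours against wildtype and in 6 for the tumours against SufuKO, where 41.0%, 56.6% and 39.7% of all tested genes did not overlap. The number of genes called lower in SufuKO rested on single arrays, at 3 without SufuKO replicate 1 or 3 or wildtype replicate 1 or 3, and at 2 without wildtype replicate 2. In the tumours, the 2 lower calls became 1 without tumour replicate 2 or wildtype replicate 2.

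**Figure D1:**
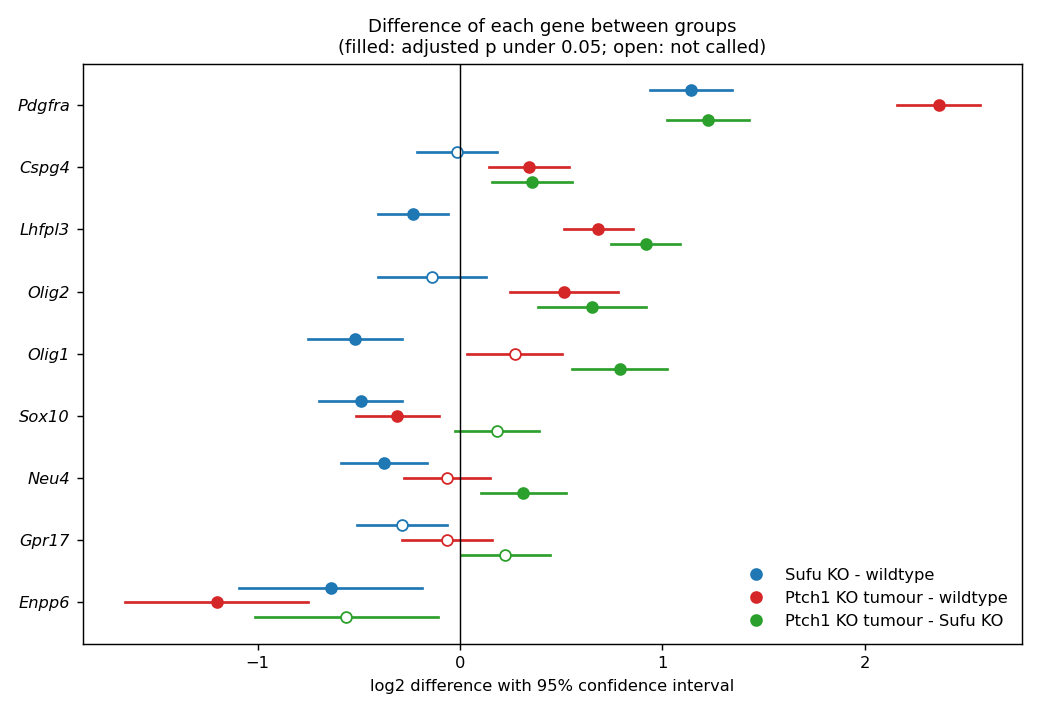
Log2 difference of each of the 9 genes in the 3 comparisons (points) with its 95% confidence interval (lines), filled where the adjusted p was under 0.05. Pdgfra lies to the right of 0 in all 3 comparisons, from 1.14 to 2.36, and Enpp6 to the left in all 3, from -0.56 to -1.20.

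Pdgfra, the receptor through which PDGF keeps precursors dividing, showed the largest differences of the 9. Its log2 values were 8.17, 8.03 and 7.87 in wildtype, 9.14, 9.12 and 9.23 in SufuKO and 10.50, 10.45 and 10.22 in the tumours. The 3 groups lay in that order with no overlap, and the gap between neighbouring groups was 0.94 and 0.99 log2 units, wider than the range of 0.12 to 0.30 within any group. Pdgfra rose by 1.14 ± 0.09 log2 units (SE, n = 3 per group, 2.20-fold, adjusted p = 7.12e-06) in SufuKO and by 2.36 ± 0.09 (5.15-fold, adjusted p = 5.26e-09) in the tumours. The tumours stood 1.22 ± 0.09 log2 units (2.34-fold, adjusted p = 4.72e-06) above SufuKO. Among 16323 tested genes, 138 had a higher log2 difference in SufuKO against wildtype, 78 in the tumours against wildtype and 43 in the tumours against SufuKO.

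The genes of the PDGF ligands did not follow the course of Pdgfra. Pdgfa, the ligand that acts on Pdgfra in the developing brain, read 8.53, 8.48 and 8.44 (log2) in wildtype, 8.36, 8.27 and 8.26 in SufuKO and 9.76, 9.75 and 9.43 in the tumours. It was the highest on the tumour arrays and lay lower on every SufuKO array than on any wildtype array. Pdgfa rose by 1.16 ± 0.09 log2 units (SE, 2.24-fold, adjusted p = 4.69e-07) in the tumours, and its log2 difference in SufuKO was -0.19 ± 0.09 (adjusted p = 0.147). Of the 5 genes of the PDGF list, which held Pdgfa, Pdgfb, Pdgfc, Pdgfd and the partner receptor Pdgfrb, 0 rose and 2 fell in SufuKO, and 1 rose and 2 fell in the tumours. Those that fell in both were Pdgfd, at -0.63 and -0.74 log2 units, and Pdgfrb, the receptor of pericytes, at -0.38 and -0.43. Pdgfb read -0.23 and -0.18, and Pdgfc 0.082 and 0.17, with no call.

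**Figure D2:**
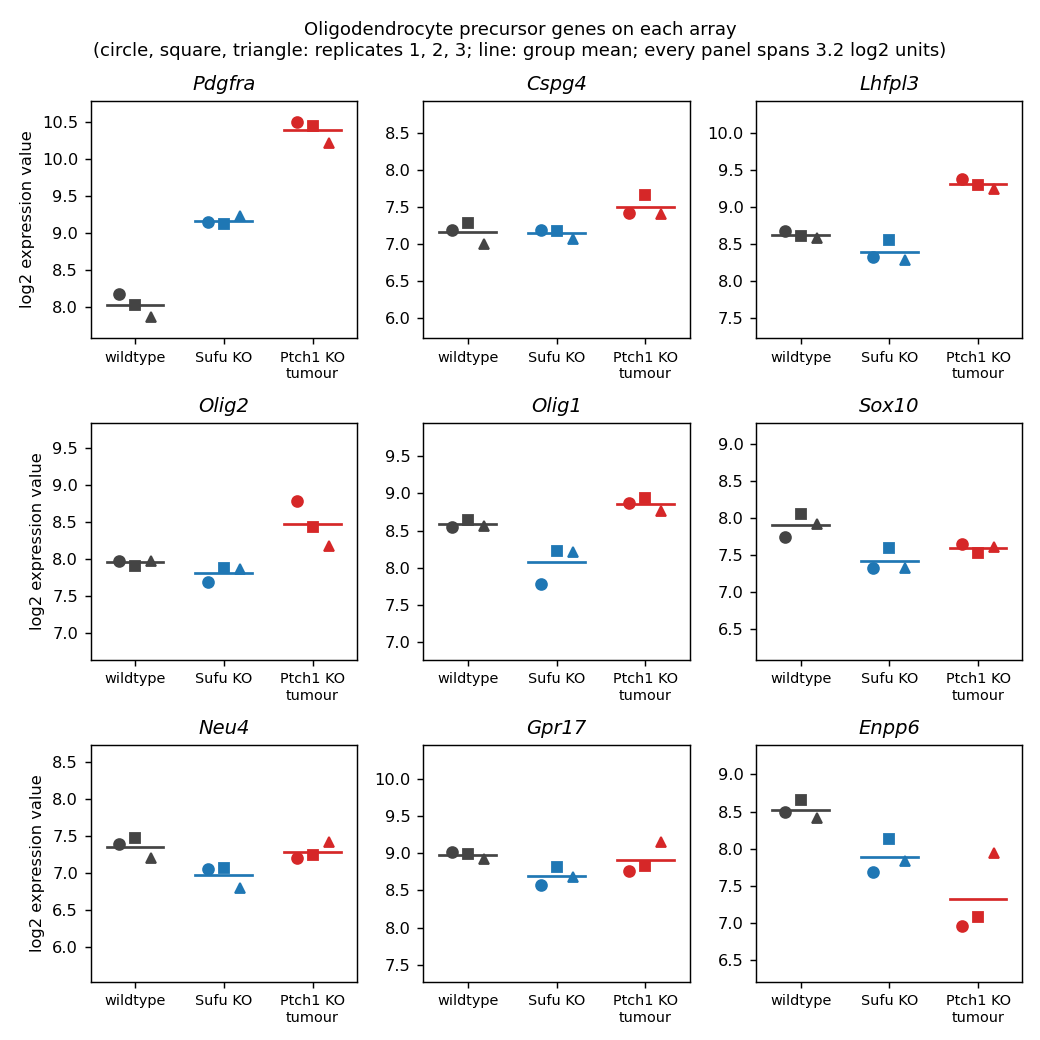
Log2 expression value of each of the 9 genes on each array, with replicates 1, 2 and 3 as circle, square and triangle and a line at the group mean. Every panel spans the same number of log2 units, so slopes can be compared; Pdgfra climbs from wildtype (8.02) through SufuKO (9.16) to the tumours (10.39), and tumour replicate 3 stands apart in Enpp6 (7.94 against 6.95 and 7.08).

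Lhfpl3 and Cspg4 were higher in the tumours and not called higher in SufuKO. Lhfpl3, a membrane protein of the tetraspan family that is enriched in precursors, read 8.68, 8.62 and 8.58 (log2) in wildtype, 8.33, 8.55 and 8.29 in SufuKO and 9.38, 9.30 and 9.25 in the tumours. The tumours lay 0.57 log2 units above the nearest wildtype array, and SufuKO lay below wildtype by a gap of 0.029. Lhfpl3 rose by 0.68 ± 0.08 log2 units (SE, 1.61-fold, adjusted p = 1.42e-05) in the tumours and fell by 0.23 ± 0.08 (adjusted p = 0.0476) in SufuKO. That fall lost its call when any 1 array other than SufuKO replicate 2 or tumour replicate 3 was left out (adjusted p from 0.0567 to 0.148). Between the mutants the log2 difference was 0.92 ± 0.08 (adjusted p = 9.65e-06), and 178 of all tested genes exceeded it.

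Cspg4, the NG2 proteoglycan, read 7.19, 7.28 and 7.00 (log2) in wildtype, 7.19, 7.17 and 7.07 in SufuKO and 7.42, 7.66 and 7.41 in the tumours. Wildtype and SufuKO overlapped, and the 3 tumour arrays lay above both. The tumours were higher by 0.34 ± 0.09 log2 units (SE, 1.27-fold, adjusted p = 0.00801) than wildtype and by 0.35 ± 0.09 (adjusted p = 0.0106) than SufuKO. The second of these calls ended without tumour replicate 2 (adjusted p = 0.0546). The log2 difference of SufuKO from wildtype was -0.015, with a 95% confidence interval from -0.21 to 0.18.

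The transcription factors of the lineage differed from one another. Olig1 and Olig2 are related basic helix-loop-helix factors encoded side by side on chromosome 16, with 0 protein-coding genes between them in the RefSeq order. Olig1 read 8.55, 8.65 and 8.56 (log2) in wildtype, 7.78, 8.23 and 8.20 in SufuKO and 8.87, 8.93 and 8.77 in the tumours. The 3 groups did not overlap, with SufuKO lowest and the tumours highest. Olig1 fell by 0.52 ± 0.11 log2 units (SE, 1.43-fold, adjusted p = 0.00377) in SufuKO. In the tumours its log2 difference from wildtype was 0.27 ± 0.11 (adjusted p = 0.0571), which did not pass. That difference passed in 8 of the 18 alternative settings, among them without SufuKO replicate 1 (adjusted p = 0.00574) or 3 (adjusted p = 0.0460) and with a sex term (0.38, adjusted p = 0.0252). The tumours stood 0.79 ± 0.11 log2 units (1.73-fold, adjusted p = 0.000182) above SufuKO.

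Olig2, which specifies the lineage and is also made by other neural progenitors, read 7.98, 7.91 and 7.98 (log2) in wildtype, 7.70, 7.89 and 7.87 in SufuKO and 8.79, 8.44 and 8.18 in the tumours. The groups lay in the same order as for Olig1, but SufuKO and wildtype were separated by 0.024 log2 units and the tumour arrays spread over 0.61. Olig2 rose by 0.51 ± 0.12 log2 units (SE, 1.43-fold, adjusted p = 0.00403) in the tumours. Its log2 difference in SufuKO was -0.14 ± 0.12 (95% confidence interval -0.41 to 0.13, adjusted p = 0.481). The tumours exceeded SufuKO by 0.65 ± 0.12 (adjusted p = 0.00160). Their relative Olig3, a factor of the progenitors that give rise to granule neurons, rose in both mutants, by 1.80 ± 0.15 log2 units (adjusted p = 6.53e-06) in SufuKO and by 4.30 ± 0.15 (adjusted p = 3.16e-09) in the tumours. It was 1 of 2 tested relatives of the Olig factors, and the other, Bhlhe23, differed by 0.0023 and -0.039 log2 units with no call.

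Sox10, which acts through all stages of the oligodendrocyte lineage and switches on myelin genes, went the other way in the tumours. It read 7.75, 8.06 and 7.92 (log2) in wildtype, 7.32, 7.60 and 7.33 in SufuKO and 7.65, 7.54 and 7.61 in the tumours. Both mutants lay below every wildtype array and overlapped each other. Sox10 fell by 0.49 ± 0.09 log2 units (SE, 1.41-fold, adjusted p = 0.00246) in SufuKO and by 0.31 ± 0.09 (1.24-fold, adjusted p = 0.0165) in the tumours. The second call ended without wildtype replicate 2 (adjusted p = 0.0819) or tumour replicate 2 (adjusted p = 0.0628). Between the mutants the log2 difference was 0.18 ± 0.09, with a 95% confidence interval from -0.025 to 0.39 (adjusted p = 0.191).

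The genes of cells leaving the precursor stage included the gene with the largest fall. Enpp6, a choline phosphodiesterase of newly forming oligodendrocytes, read 8.50, 8.66 and 8.41 (log2) in wildtype, 7.69, 8.13 and 7.83 in SufuKO and 6.95, 7.08 and 7.94 in the tumours. All mutant arrays lay below all wildtype arrays, and tumour replicate 3 lay among the SufuKO arrays. Enpp6 fell by 1.20 ± 0.21 log2 units (SE, 2.30-fold, adjusted p = 0.000379) in the tumours and by 0.64 ± 0.21 (1.56-fold, adjusted p = 0.0399) in SufuKO. The fall in SufuKO lost its call without any 1 of the 3 wildtype arrays or SufuKO replicate 1 or 3 (adjusted p from 0.0675 to 0.129). Between the mutants the log2 difference was -0.56 ± 0.21 (adjusted p = 0.0604), and without tumour replicate 3 it was -0.87 (adjusted p = 0.000257).

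Tumour replicate 3 was also the tumour array with the lowest Pdgfra, Cspg4, Olig1, Olig2 and Lhfpl3 and the highest Gpr17 and Neu4. Its markers of other cells differed too: 9 genes of dividing cells had a mean log2 level of 9.17 on it against 9.69 and 9.57 on replicates 1 and 2, and 12 genes of astrocytes and Bergmann glia 9.61 against 9.25 and 9.37. The part of these levels in the Enpp6 values was not tested.

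Gpr17, a G protein-coupled receptor that is high in committed precursors and falls as they mature, read 9.02, 8.99 and 8.93 (log2) in wildtype, 8.58, 8.82 and 8.68 in SufuKO and 8.76, 8.83 and 9.16 in the tumours. The SufuKO arrays lay below wildtype, and the tumours overlapped both. Its log2 difference was -0.29 ± 0.10 (SE, adjusted p = 0.0562) in SufuKO, -0.065 ± 0.10 (adjusted p = 0.663) in the tumours and 0.22 ± 0.10 (adjusted p = 0.127) between the mutants. The first of these passed without SufuKO replicate 2 (adjusted p = 0.0489), tumour replicate 1 (adjusted p = 0.0480) or tumour replicate 3 (adjusted p = 0.0129).

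Neu4, a sialidase that trims polysialic acid, read 7.39, 7.47 and 7.20 (log2) in wildtype, 7.05, 7.07 and 6.80 in SufuKO and 7.20, 7.25 and 7.41 in the tumours. SufuKO was lowest, and the tumours overlapped wildtype. Neu4 fell by 0.38 ± 0.10 log2 units (SE, 1.30-fold, adjusted p = 0.0131) in SufuKO, a call that ended without wildtype replicate 2 (adjusted p = 0.0623). The tumours differed from wildtype by -0.064 ± 0.10 (adjusted p = 0.649) and were 0.31 ± 0.10 log2 units higher than SufuKO (adjusted p = 0.0285). The latter call ended without tumour replicate 2 (adjusted p = 0.0576), tumour replicate 3 (adjusted p = 0.0954) or SufuKO replicate 3 (adjusted p = 0.0984).

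Other genes of the lineage were read from lists ordered by stage. In total RNA of a tissue, fewer cells of a type, less RNA per cell and more RNA from other cells cannot be told apart. Of 16 other precursor genes tested, 4 rose, 6 fell and 6 did not pass in SufuKO, with a median log2 difference of -0.16. In the tumours 6 rose, 2 fell and 8 did not pass, with a median of 0.17. Against SufuKO, 8 were higher in the tumours and 1 was lower (Myt1), with a median of 0.28. C1ql1, a secreted C1q-like protein of precursors and of some neurons, rose in both, by 0.88 ± 0.10 log2 units (SE, adjusted p = 4.95e-05) in SufuKO and by 2.25 ± 0.10 (adjusted p = 8.48e-09) in the tumours. Its log2 values were 7.77, 8.06 and 7.72 in wildtype, 8.62, 8.75 and 8.82 in SufuKO and 10.13, 10.18 and 9.99 in the tumours, the same order of groups as Pdgfra. Vcan, the proteoglycan versican, rose by 0.98 ± 0.11 (adjusted p = 1.39e-05) in the tumours and differed by -0.11 in SufuKO with no call. Gria3, an AMPA receptor subunit that neurons also make, fell in both, by 0.93 and 0.98 log2 units, and Tnr, the matrix protein tenascin-R, fell by 0.75 in SufuKO and by 0.97 in the tumours.

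Against wildtype, no listed gene of the later stages was called higher. Of 14 genes of newly formed oligodendrocytes, 0 rose and 7 fell in SufuKO, with a median log2 difference of -0.29. In the tumours 0 rose and 8 fell, with a median of -0.41. Against SufuKO, 2 of the 14 were higher in the tumours (Bcas1 by 0.35 log2 units and Tcf7l2 by 0.28) and 6 were lower, with a median of -0.16. Ugt8a, the enzyme that makes the myelin lipid galactosylceramide, fell by 0.82 ± 0.14 log2 units (SE, adjusted p = 0.000917) in SufuKO and by 2.05 ± 0.14 (adjusted p = 1.52e-07) in the tumours. Myrf, the transcription factor that starts myelination, fell by 0.40 ± 0.12 (adjusted p = 0.0245) in SufuKO and by 0.98 ± 0.12 (adjusted p = 1.59e-05) in the tumours. The count of 7 in SufuKO became 4 without SufuKO replicate 1 or 3 or wildtype replicate 1, and 2 without wildtype replicate 2.

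Of 16 genes of mature, myelinating oligodendrocytes, 14 fell in SufuKO and 2 did not pass, with a median log2 difference of -0.63. All 16 fell in the tumours, with a median of -1.71, and 12 of 16 were lower in the tumours than in SufuKO, with a median of -1.12. Mag and Mog, adhesion proteins of the myelin sheath, fell by 2.60 ± 0.14 (SE, 6.05-fold, adjusted p = 4.73e-08) and 2.34 ± 0.13 (5.08-fold, adjusted p = 4.74e-08) log2 units in the tumours. In SufuKO they fell by 0.85 (adjusted p = 0.00108) and 0.66 (adjusted p = 0.00269). Mal, a myelin proteolipid, fell by 0.93 ± 0.12 (adjusted p = 0.000152) in SufuKO and by 2.30 ± 0.12 (adjusted p = 2.84e-08) in the tumours. The mean log2 level of these 16 genes ran from 9.42 to 9.70 in wildtype, from 8.78 to 9.15 in SufuKO and from 7.87 to 7.97 in the tumours, so the order of groups was the reverse of that of Pdgfra and the same as that of the Enpp6 means.

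**Figure D3:**
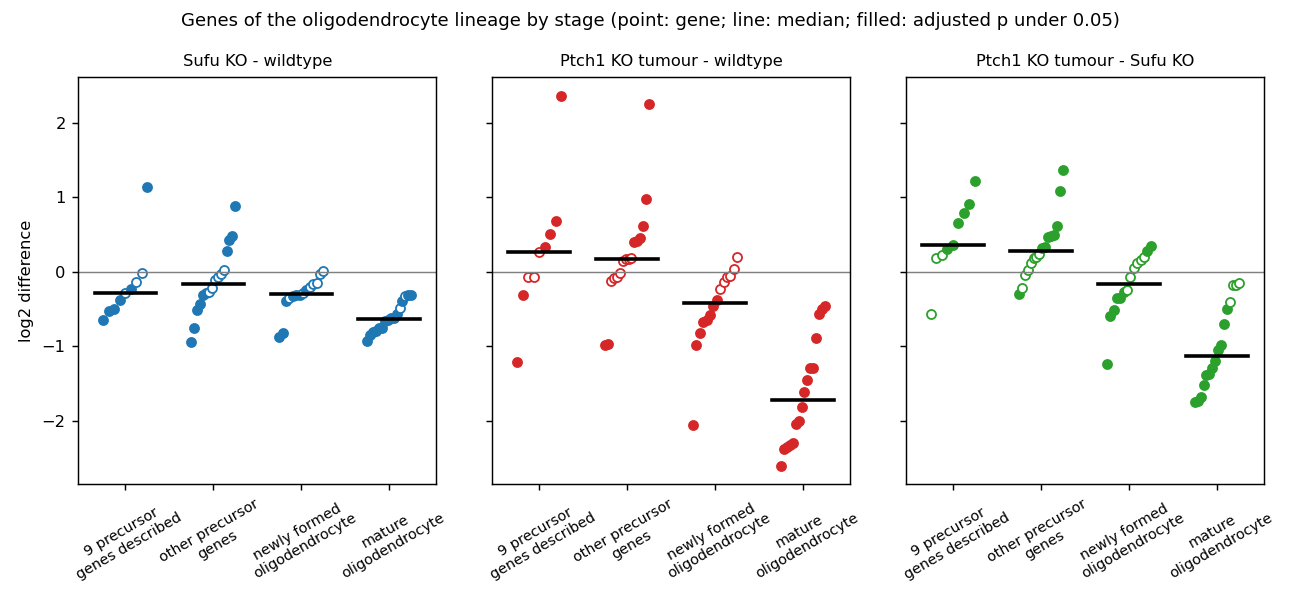
Log2 difference of each gene (points, ordered by value within a list, filled where the adjusted p was under 0.05) for the 9 precursor genes and 3 lists of the oligodendrocyte lineage, with a line at the median. In the tumours against wildtype the medians are 0.27 for the 9 genes and 0.17 for the other precursor genes. They are -0.41 and -1.71 for the newly formed and mature stages. The 9 genes include Gpr17 and Enpp6, which mark cells leaving the precursor stage.

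Markers of other cells that can make these genes were read beside them. Of 10 meningeal fibroblast genes, a cell type that makes Pdgfra, 0 rose and 5 fell in SufuKO, and 2 rose and 3 fell in the tumours. Those that rose in the tumours were Islr, by 0.76 log2 units, and Lum, the matrix proteoglycan lumican, by 0.43, and the mean log2 level of the list ran from 7.11 to 7.25 in wildtype, 6.82 to 7.01 in SufuKO and 7.09 to 7.19 in the tumours. A list of 10 genes covered pericytes, which make Cspg4, and endothelial cells. In SufuKO 0 rose and 2 fell, and in the tumours 0 rose and 6 fell. The 4 not called in the tumours (Kcnj8, Abcc9, Anpep and Higd1b) are pericyte genes. The pericyte genes called lower there were Vtn, by 0.76 log2 units, and Rgs5, by 0.38, and the rest of the 6 were endothelial. The mean log2 level of the list was 7.62 to 7.70 in wildtype, 7.36 to 7.48 in SufuKO and 7.36 to 7.41 in the tumours. Of 4 tested Schwann cell and neural crest genes, cells that make Sox10, 2 fell in each mutant, namely Erbb3 and Pmp22, which oligodendrocytes or other brain cells also make, and Egr2 rose by 0.26 log2 units in the tumours. That list had mean log2 levels of 7.34 to 7.48 in wildtype, 7.01 to 7.23 in SufuKO and 7.08 in the tumours. The values carry no detection calls, so no marker can be called absent.

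Lists of progenitors and of dividing cells moved in the direction of Pdgfra. The shares of all tested genes called were those given above for the other lists. Of 10 genes of granule neuron progenitors, 7 rose in SufuKO and 9 in the tumours, and 0 fell in either. The mean log2 levels were 8.49 to 8.69 in wildtype, 9.50 to 9.60 in SufuKO and 10.12 to 10.44 in the tumours. In the tumours 8 of these 10 were higher than in SufuKO and 1 was lower (Pax6, -0.22 log2 units). All 9 tested genes of dividing cells rose in both mutants and were higher in the tumours than in SufuKO, with mean log2 levels of 6.32 to 6.65, 8.41 to 8.64 and 9.17 to 9.69. Of 12 genes of astrocytes and Bergmann glia, 10 fell in SufuKO and 9 in the tumours, with 0 rising. Their mean log2 levels were 10.16 to 10.23, 9.58 to 9.64 and 9.25 to 9.61. Of 6 microglial genes 0 were called in SufuKO, and C1qa and Cx3cr1 rose in the tumours, with mean log2 levels of 6.72 to 6.75, 6.75 to 6.87 and 6.87 to 7.03. The part of any of these cells in the levels of the 9 genes was not tested.

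**Figure D4:**
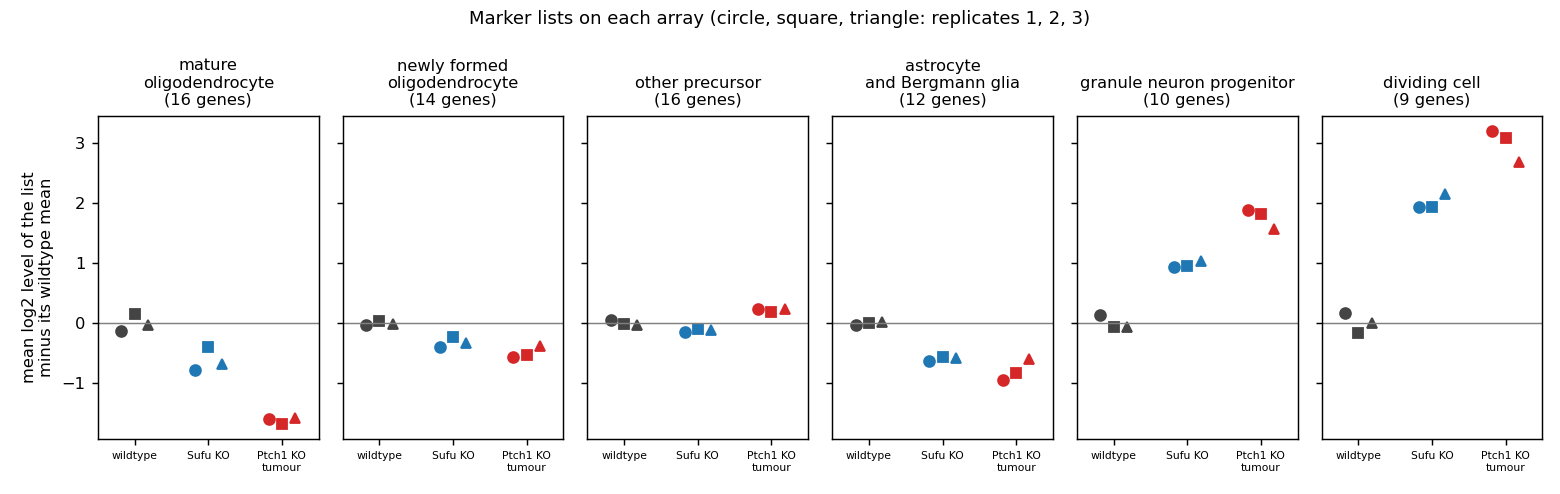
Mean log2 level of 6 marker lists on each array, as the difference from the list's wildtype mean, with replicates 1, 2 and 3 as circle, square and triangle. The list means of mature oligodendrocytes step down from wildtype through SufuKO to the tumours. Those of granule neuron progenitors and dividing cells step up, though single genes can differ from their list. The mean of the other precursor genes stays within 0.3 of wildtype.

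The genes whose log2 values followed each of the 9 most closely over the 9 arrays differed from gene to gene. The measure was Pearson's r over the 3 groups together, so it rests mainly on the order of the group means, and it carries no test. For Pdgfra they were Smc2, a condensin subunit that compacts chromosomes (r = 0.998), Kif18a, a kinesin of the mitotic spindle (0.998), and the kinase Akt1 (0.997). For Enpp6 they were the ion channel gene Trpc5 (r = 0.988), the semaphorin receptor gene Plxnb3 (0.980) and Spag1 (0.977). Olig2 was followed by Tspan18 (r = 0.996), Mn1 (0.982) and Crispld1 (0.970), Olig1 by Rnft1 (0.976), Zeb2 (0.975) and Klhl28 (0.961), and Lhfpl3 by Epb41l2 (0.986), Tmem255b (0.978) and Asap1 (0.978). For Sox10 they were Arpc1b (r = 0.957), Plpp4 (0.953) and Npy (0.953), and for Cspg4 Olfm2 (0.961), Ptges (0.951) and Flnc (0.950). For Gpr17 they were Mgat4c (r = 0.981), Tec (0.927) and Fgfr3 (0.926), and for Neu4 Pla2g4f (0.952), Adam9 (0.933) and Irx3 (0.924). No gene appeared for more than 1 of the 9, and none of the 9 was among the closest 3 of another.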

How the data were processed

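The authors deposited 1 table of log2 expression values for 35556 probe sets on 9 arrays. How the authors corrected, normalized and summarised the intensities was not given in the sources used here, and the log2 scale was recognised from the range of the deposited values. Groups and replicate numbers came from the sample titles. Probe sets were named from the array's annotation table, with symbols checked by gene identifier against RefSeq (GRCm38.p6). For a gene with several single-gene probe sets, the one with the highest mean stood for it. A gene was tested where 3 or more arrays placed it above the 25th percentile of all probe sets.

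Linear models were fitted in R 4.3.3 with limma 3.58.1, with 1 mean per group over all 9 arrays, empirical Bayes moderation and 2-sided p-values adjusted by Benjamini-Hochberg over 16323 genes, at 0.05. SE is the moderated standard error, and a fold is the antilog of a log2 difference. The fit was tested on simulated data with changes in SufuKO that were larger than most differences of the 9 genes. Smaller changes were not simulated. All 9 genes are named, from each other list at most the 4 with the smallest p in a comparison (any where a count is 5 or fewer), and for each of the 9 the 3 genes with the highest Pearson r, placeholder symbols left out. Other values named were chosen after they were seen. The genes and lists were chosen with earlier results of these data known. The 18 alternatives changed the probe set rule, filter, scaling, samples, prior, block or sex term, or left out 1 array.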

Additional observations from a re-analysis of the deposited data

Results flagged for a closer look

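Olig1, Olig2 and Lhfpl3 lay below every wildtype array in all 3 SufuKO samples and above every wildtype array in all 3 tumours. The values of Olig1, Olig2 and Lhfpl3 in the tumours exceeded those in SufuKO by 0.79, 0.65 and 0.92 log2 units. The genes were picked for this order of the groups, which fixes the sign of these differences, so they are given as a description with no test. Of the 3, Lhfpl3 passed the test against wildtype in both mutants, and its fall in SufuKO lost its call in 10 of 18 alternatives. Olig2 in SufuKO (-0.14, adjusted p = 0.481) and Olig1 in the tumours (0.27, adjusted p = 0.0571) did not pass. Groups that do not overlap were common, at 41.0% of all tested genes for SufuKO and 56.6% for the tumours against wildtype.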

How the results depend on the processing

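Over 18 alternatives, 16 of the 27 differences of a gene in a comparison kept their direction and their side of the threshold, 9 gained or lost a call in at least 1 alternative and 2 changed sign. The 2 were never called: Cspg4 in SufuKO against wildtype read 0.029 with a sex term and from -0.093 to 0.046 with 1 array left out, and Gpr17 in the tumours against wildtype from -0.19 to 0.014. With 1 array left out, lower calls ran from 2 to 6 in SufuKO, 1 to 2 in the tumours and 0 to 1 between the mutants, and higher calls were 1, 4 to 5 and 4 to 6. Correlations of deviations between same-numbered samples ran from 0.085 to 0.35 for wildtype with SufuKO. For pairs with a tumour array they ran from -0.31 to 0.12. With a replicate block Lhfpl3 in SufuKO lost its call (adjusted p = 0.0516) and Olig1 in the tumours gained one (adjusted p = 0.0461). Calls over all genes moved from 4150, 7644 and 4846 to 3989, 7520 and 4626. The other alternatives besides left-out arrays changed these calls: Enpp6 in SufuKO ended with a trended prior (adjusted p = 0.0575), Lhfpl3 in SufuKO ended with no filter (0.0515) or only the 2 groups (0.0643), Gpr17 in SufuKO passed with a filter at the median (0.0451), a trended prior (0.0415) or only the 2 groups (0.0212), and Olig1 in the tumours passed with these 3 (0.0476, 0.0459 and 0.00873), quantile normalization (0.0366) or a sex term (0.0252). The cause was not tested. The list counts under these alternatives were added after the data were seen.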
